A study of Danio rerio with 6 samples.

Results

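The genes described here encode feedback inhibitors of ERK signalling: the dual-specificity phosphatases of the dusp family and the adaptor proteins of the spry (Sprouty) and spred families. They were measured in the apex of the cryoinjured adult zebrafish ventricle. Members were the rows of the deposited expression table whose gene symbol was dusp1, dusp2, dusp4, dusp5, dusp6, spry1, spry2, spry4, spred1 or spred2a, read without regard to case or to a final paralog letter a or b. This gave 8 gene IDs of the 14211 in the table: DUSP4 (ENSDARG00000044688), DUSP5 (ENSDARG00000019307), DUSP6 (ENSDARG00000070914), SPRY2 (ENSDARG00000078308), SPRY4 (ENSDARG00000068732), SPRED1 (ENSDARG00000041449), SPRED2 (ENSDARG00000008372) and spred2a (ENSDARG00000052435). Symbols are written as the table of gene names gives them, some in capitals, and SPRED2 entered beside spred2a because the paralog letter was ignored. The 3 names dusp1, dusp2 and spry1 matched no row by symbol and were not analysed here. Symbols were available for 11589 of the 14211 IDs, so these genes may still be present under an ID without a symbol.

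The fish were AB strain adults with a heart injury made by local freezing. One group received RO, an inhibitor of the protease gamma secretase, and the other DMSO, its carrier, in each case into the peritoneal cavity at 24 h and 48 h after injury. Each library pooled the apices of 3 hearts collected 72 h after injury. RO libraries are numbered 2, 3 and 4 and DMSO libraries 1, 2 and 3. The dose of RO is not given in the labels, and neither ERK phosphorylation nor cleavage of a gamma secretase substrate was measured, nor does any group without injury stand beside these. All 6 libraries were polyA RNA.

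ERK is the last kinase of a chain in which growth factor receptors activate Ras, Ras activates Raf, Raf activates MEK, and MEK phosphorylates ERK. Active ERK switches on genes whose products then restrain the chain, so the RNA of these genes is widely used as a readout of ERK activity. In mammalian cells DUSP6 removes phosphate from ERK in the cytoplasm, DUSP5 does so in the nucleus, and DUSP4 is a nuclear phosphatase of broader range. Sprouty proteins act between the receptor and Raf, and Spred proteins recruit neurofibromin, which turns Ras off. In the zebrafish embryo dusp6, spry2 and spry4 are known as genes induced by fibroblast growth factors.

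Reads summed over the 14211 gene IDs ran from 3306018 to 4463303 per library, which leaves out reads of genes without a row. Values are scaled read counts, on which 1 read was worth 0.219 to 0.298, and they are not divided by transcript length, so they are compared between libraries and not between genes. Differences were tested with limma on log2(value + 0.5) for RO minus DMSO, with Benjamini-Hochberg adjustment over all 14211 genes and a threshold of 0.05. Markers were listed for 7 cell types, among them heart muscle, endothelium and fibroblasts. No marker matched to a row was at 0 in any library. Genes with hardly any signal have no row, so this outcome was largely fixed beforehand and does not show that each cell type was present. Listed names that matched no row by symbol, such as kdrl, gata4 and csf1r, could not be judged. A missing match does not show low signal, since some IDs carry no symbol. Of 10 neutrophil names, 6 matched a row. Being bulk tissue, the libraries do not tell fewer cells of a type apart from less RNA per cell.

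No member of the 8 passed the threshold, at a background of 1.03% of all genes (0.647% higher and 0.387% lower in RO). The edgeR quasi-likelihood test and DESeq2 on the recovered reads also called 0 of the 8, though DESeq2 gave SPRED2 no adjusted p. At an unadjusted p below 0.05 there were 3 members, SPRY2, spred2a and DUSP5, where 13.4% of all genes lay below that value. SPRY2 and spred2a were lower in each RO library than in every DMSO library, and the other 6 members overlapped between the groups. Across all genes, 18.7% had groups that did not overlap, 9.35% with the RO libraries lower and 9.32% with them higher. The median log2 fold change of the 8 was 0.081, beside -0.010 over all genes. It was -0.0031 without DMSO replicate 1.

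**Figure D1:**
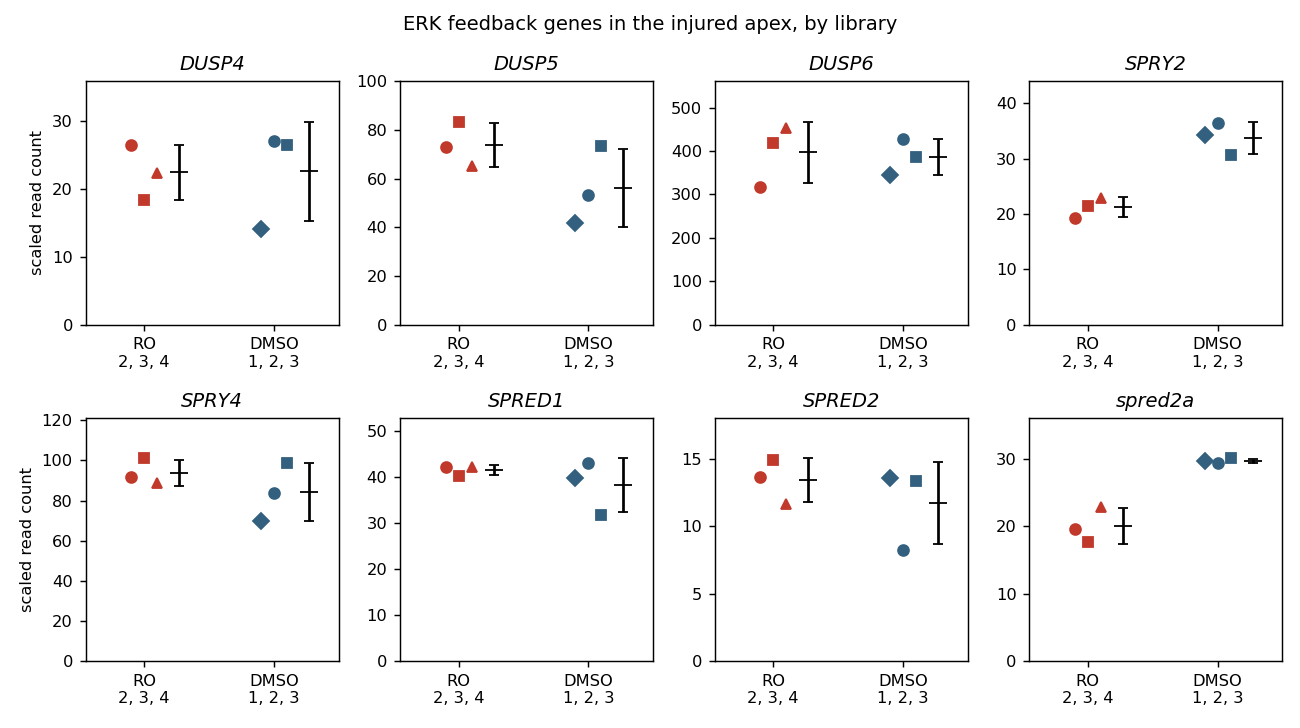
Scaled read count (vertical axis, from 0) of each of the 8 ERK feedback genes in RO libraries (left of each panel, red) and DMSO libraries (right, blue), with the marker shape giving the replicate number (diamond 1, circle 2, square 3, triangle 4) and black bars giving mean ± SD of 3 libraries. The RO libraries of SPRY2 (19.3 to 22.9) and spred2a (17.7 to 22.9) lie below all DMSO libraries of those genes, while the groups overlap in the other 6 panels.

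SPRY2, one of the Sprouty genes, had the largest difference of the 8 members. It stood at 19.3, 21.5 and 22.9 in RO replicates 2, 3 and 4, against 34.3, 36.4 and 30.7 in DMSO replicates 1, 2 and 3. All RO libraries lay below all DMSO libraries, with a gap wider than the spread within either group. The means were 21.2 ± 1.82 in RO and 33.8 ± 2.90 in DMSO (SD, n = 3 each), and the fitted difference was 1.58-fold lower in RO, a log2 fold change of -0.66 with a 95% interval of -0.97 to -0.35. The adjusted p from limma was 0.0585, which misses the threshold, and by its p SPRY2 ranked 177 of the 14211 genes. Robust empirical Bayes, which limits the weight of genes with extreme variance, brought the adjusted p to 0.0459, with 1.27% of all genes called. Testing only genes with a mean value of at least 5 gave SPRY2 an adjusted p of 0.0501, with 1.35% of those genes called and none of the members among them. Leaving out 1 library at a time gave log2 fold changes between -0.73 and -0.59 and adjusted p between 0.0759 and 0.206. Each SPRY2 value rests on 69 to 141 reads, for which counting error alone is 8.42% to 12.0%. The SD of SPRY2 was 8.56% of the mean in RO and 8.57% in DMSO. Both lie near the lower end of that counting error, so these SDs may understate the error of a single library.

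SPRY4, the other Sprouty gene measured, overlapped between the groups. It stood at 91.6, 101 and 88.8 in the RO libraries, against 69.8, 83.9 and 98.5 in the DMSO libraries. DMSO replicate 3 lay within the RO range, and the other DMSO libraries lay below it. The log2 fold change was 0.17, with a 95% interval of -0.14 to 0.47 (limma, adjusted p = 0.663).

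Of the 3 Spred genes, which hold Ras in check, only spred2a had groups that did not overlap. It stood at 19.6, 17.7 and 22.9 in the RO libraries, against 29.7, 29.4 and 30.1 in the DMSO libraries, so no library of one group reached the other. The means were 20.1 ± 2.60 in RO and 29.7 ± 0.327 in DMSO (SD, n = 3 each), a difference of 1.48-fold lower in RO with a log2 fold change of -0.56, a 95% interval of -0.89 to -0.24 and an adjusted p from limma of 0.109. The DMSO values of spred2a agreed within a coefficient of variation of 1.10%, closer than their counting error of 9.05% to 9.95% at 101 to 122 reads, so this SD understates the error of a single library. Over the settings tried, the adjusted p of spred2a lay between 0.0867 and 0.217, and between 0.0868 and 0.293 without 1 library at a time.

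SPRED2, listed under the unlettered symbol, stood at 13.7, 14.9 and 11.7 in the RO libraries, against 13.6, 8.26 and 13.4 in the DMSO libraries. DMSO replicate 2 was low and the other DMSO libraries lay within the RO range. Its log2 fold change was 0.21, with a 95% interval of -0.28 to 0.70 (limma, adjusted p = 0.746), on 32 to 68 reads per library. Without DMSO replicate 2 the log2 fold change of SPRED2 was -0.016. SPRED1 stood at 42.2, 40.3 and 42.1 in the RO libraries, against 39.9, 43.1 and 31.9 in the DMSO libraries, where DMSO replicate 3 was low. Its log2 fold change was 0.13, with a 95% interval of -0.18 to 0.44 (limma, adjusted p = 0.764).

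Among the phosphatases, DUSP5, the nuclear phosphatase of ERK, had the largest difference. It stood at 73.2, 83.4 and 65.2 in the RO libraries, against 41.8, 53.2 and 73.5 in the DMSO libraries. DMSO replicate 3 lay among the RO libraries and the other DMSO libraries below them. The means were 73.9 ± 9.13 in RO and 56.2 ± 16.1 in DMSO (SD, n = 3 each), with a log2 fold change of 0.42, a 95% interval of 0.011 to 0.84 and an adjusted p from limma of 0.357. The log2 fold change of DUSP5 was 0.64 without DMSO replicate 3 and 0.23 without DMSO replicate 1.

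DUSP6, the phosphatase most used as a reporter of ERK activity, did not differ detectably. It stood at 318, 419 and 454 in the RO libraries, against 345, 427 and 386 in the DMSO libraries. Both the lowest and the highest library were RO libraries. The means were 397 ± 70.7 in RO and 386 ± 41.0 in DMSO (SD, n = 3 each). The log2 fold change was 0.030, with a 95% interval of -0.29 to 0.35 (limma, adjusted p = 0.957), and differences inside that interval were not resolved. DUSP6 rested on 1138 to 1913 reads per library, for which counting error is 2.29% to 2.96%, and its coefficient of variation was 17.8% in RO and 10.6% in DMSO. Its sign turned under quantile normalization, with the replicate number as a block, and without RO replicate 3, RO replicate 4 or DMSO replicate 1.

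DUSP4 stood at 26.5, 18.4 and 22.4 in the RO libraries, against 14.1, 27.1 and 26.5 in the DMSO libraries. DMSO replicate 1 was low, and the other DMSO libraries lay close to the highest RO library. Its log2 fold change was 0.035, with a 95% interval of -0.50 to 0.57 (limma, adjusted p = 0.970), and -0.27 without DMSO replicate 1.

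**Figure D2:**
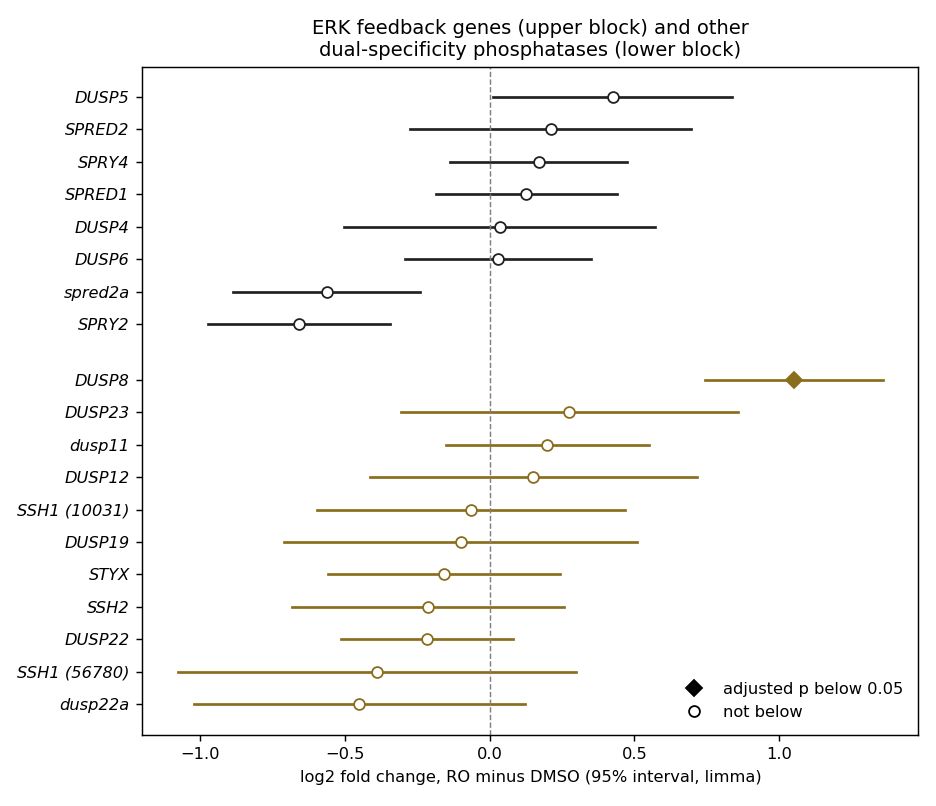
Log2 fold change of RO minus DMSO with its 95% interval from limma (horizontal axis) for the 8 ERK feedback genes (upper block) and 11 other dual-specificity and related phosphatase IDs (lower block, the 2 SSH1 IDs told apart by their last digits), with a filled diamond where the adjusted p is below 0.05. The intervals of SPRY2 (-0.97 to -0.35) and spred2a (-0.89 to -0.24) lie below 0 without passing the threshold, and of all 19 IDs only DUSP8 passes.

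Relatives within a family were compared inside each library. In a ratio of 2 genes a scaling factor of the library cancels, apart from the added 0.5. The log2 ratio of SPRY2 to SPRY4 was -2.22, -2.21 and -1.93 in the RO libraries, against -1.01, -1.19 and -1.67 in the DMSO libraries, a difference of -0.83. The groups did not overlap, and DMSO replicate 3 came nearest to the RO libraries. The log2 ratio of spred2a to SPRED2 was 0.50, 0.24 and 0.94 in the RO libraries, against 1.10, 1.77 and 1.14 in the DMSO libraries, a difference of -0.77. That of spred2a to SPRED1 was -1.09, -1.16 and -0.87 in the RO libraries, against -0.42, -0.54 and -0.082 in the DMSO libraries, a difference of -0.69. Of 7 ratios computed, these 3 had groups that did not overlap, each with a two-sided exact permutation p of 0.1 (0.233 after Benjamini-Hochberg adjustment), which is the smallest p that 3 against 3 libraries allow. The ratios were computed after the values of the members had been seen. All 3 contain SPRY2 or spred2a, whose groups did not overlap on their own, so they are not separate results. The share of such ratios over all gene pairs was not computed. The ratios among DUSP4, DUSP5 and DUSP6 and of SPRED1 to SPRED2 overlapped between groups, with differences from -0.39 to 0.39 and exact permutation p from 0.2 to 1.

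**Figure D3:**
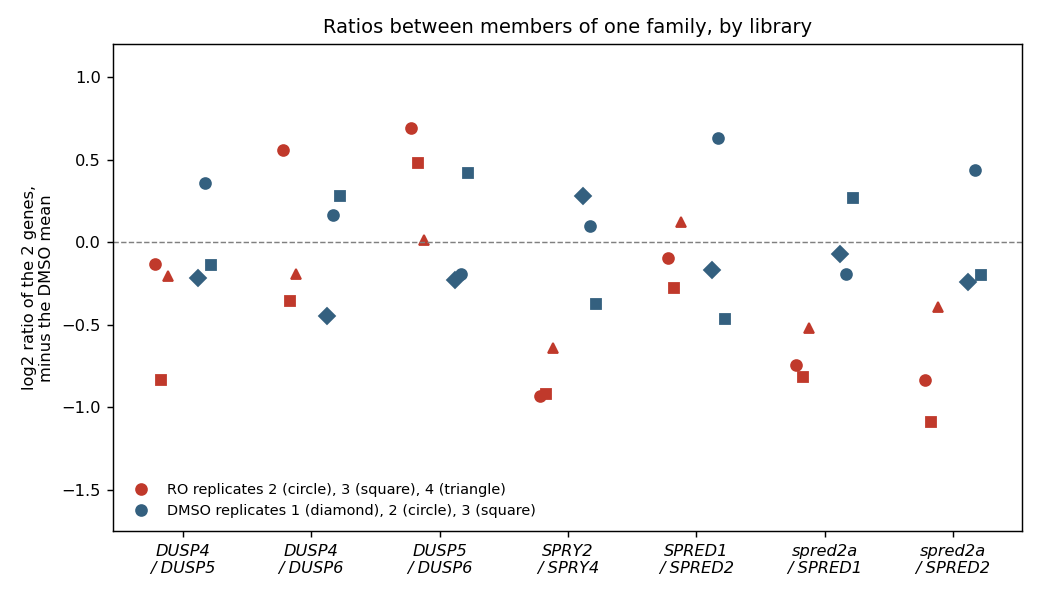
Log2 ratio of 2 members of one family in each library, minus the mean of the DMSO libraries (vertical axis), for 7 gene pairs (horizontal axis), with RO libraries in red left of DMSO libraries in blue and marker shapes giving the replicate number. The RO libraries lie below all DMSO libraries for SPRY2 to SPRY4, spred2a to SPRED1 and spred2a to SPRED2, with mean differences of -0.83, -0.69 and -0.77, and overlap them for the other 4 pairs.

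The members also differed in how evenly the libraries of a group agreed. On the log2 scale the SD was larger among DMSO than among RO libraries for 6 of the 8 members, against 45.8% of all genes. Each SD rests on 3 libraries. For SPRY2, counted among the 6, the SDs were nearly equal, at 0.1235 in DMSO and 0.1221 in RO. For SPRED1 the RO coefficient of variation of 2.56% lay below its counting error of 7.37% to 9.67%. The pooled SD within groups ran from 0.12 for SPRY2 to 0.41 for DUSP4, where the median over all genes was 0.23. DMSO replicate 1 was the lowest DMSO library for 4 members, DUSP4, DUSP5, DUSP6 and SPRY4, as it was for 32.7% of all genes.

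Beside the members stood 11 IDs of other dual-specificity and related phosphatases, most of which act on other kinases or substrates. Of these, 1 passed and 10 did not, and the median log2 fold change was -0.10. The gene that passed was DUSP8 (ENSDARG00000009299), which in mammalian cells acts mainly on the stress kinases JNK and p38. It stood at 135, 124 and 121 in the RO libraries, against 53.7, 56.3 and 74.7 in the DMSO libraries. All RO libraries lay well above all DMSO libraries. DUSP8 rose 2.07-fold, to 127 ± 7.49 in RO against 61.6 ± 11.5 in DMSO (SD, n = 3 each; limma, adjusted p = 0.00763). Its call ended without DMSO replicate 2 (adjusted p = 0.0548) and in limma without the mean-variance trend, where 1 gene of the table passed. The table of gene names does not give its paralog letter.

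Other inhibitors of the ERK chain, such as the Ras GTPase activators RASA1 and NF1 and the receptor inhibitors LRIG1 and CBL, gave no call with limma or edgeR and 1 with DESeq2. None of the 16 IDs measured passed in limma, 2 had an unadjusted p below 0.05, and the median log2 fold change was -0.063. The 2 with the highest level were both SOCS3, a cytokine-induced inhibitor. SOCS3 (ENSDARG00000025428) stood at 420, 487 and 338 in the RO libraries, against 798, 586 and 517 in the DMSO libraries, without overlap (log2 fold change -0.60, limma, adjusted p = 0.152), and it was the ID that DESeq2 called (adjusted p = 0.0270). SOCS3 (ENSDARG00000026611) overlapped, with a single high value of 341 in DMSO replicate 1 (log2 fold change -0.50, adjusted p = 0.508).

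The 34 IDs of the ERK chain ran from receptor adaptors such as SHC1 and GAB1 to kinases downstream of ERK. The related kinases MAPK6 and MAPK7 were included. None of the 34 passed with limma, edgeR or DESeq2, with 20 above 0, 14 below 0 and a median log2 fold change of 0.010. Those with the highest level were IQGAP1, a scaffold of the chain, at a log2 fold change of 0.25 (limma, adjusted p = 0.422), and MKNK2 (ENSDARG00000015164), a kinase that ERK activates, at -0.42 (adjusted p = 0.335). MAPK3, which encodes a form of ERK itself and is named outside the rule, stood at 71.5 ± 7.77 in RO and 65.2 ± 2.85 in DMSO (SD, n = 3 each). Its log2 fold change was 0.13 with a 95% interval of -0.14 to 0.40 (limma, adjusted p = 0.712).

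A list made up mostly of transcription factor genes that ERK can induce went both ways. It also holds genes outside that description, such as mcl1a, mcl1b and ELK1. Of 34 IDs, 3 rose, 1 fell and 30 did not pass in limma, and the median log2 fold change was 0.21. The number called was 0 without DMSO replicate 2, 7 without DMSO replicate 3, and 1 or 2 without any other library. The list is not specific to ERK, since klf2 and klf4 genes also answer to blood flow and NR4A3 to many stimuli. The immediate early gene egr1 fell 2.70-fold, to 43.3, 71.8 and 27.3 in the RO libraries, against 111, 140 and 110 in the DMSO libraries (limma, adjusted p = 0.0360). NR4A3 rose 6.67-fold, klf2b 3.24-fold and KLF4 3.87-fold (limma, adjusted p = 0.0323, 0.0122 and 0.0302). In all 3, as in DUSP5 and DUSP8, DMSO replicate 3 was the DMSO library nearest to the RO libraries, at 61.3 for NR4A3 against 9.48 and 15.5 in the other DMSO libraries. Without 1 library the call of egr1 ended for RO replicate 2 and each DMSO library, that of NR4A3 for every library but DMSO replicate 3, that of KLF4 for RO replicates 3 and 4 and DMSO replicates 1 and 2, and that of klf2b for DMSO replicate 2, with adjusted p up to 0.121 for egr1, 0.118 for NR4A3, 0.106 for KLF4 and 0.0662 for klf2b. In limma without the trend none of the 4 passed, and with robust empirical Bayes KLF4 alone of the 4 did. The call of NR4A3 ended in DESeq2 as well (adjusted p = 0.0747).

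The ETS factor genes of the etv group, which are known targets of fibroblast growth factor signalling together with dusp6 and the Sprouty genes in the zebrafish embryo, did not pass. They and FOS are named outside the rule, after their values were seen. The gene etv5b stood at 19.6, 17.1 and 18.7 in the RO libraries, against 9.72, 13.2 and 10.7 in the DMSO libraries, without overlap (log2 fold change 0.70, limma, adjusted p = 0.0960). ETV4 had a log2 fold change of 0.36 and etv5a of 0.27 (adjusted p = 0.462 and 0.637), and both overlapped between groups. FOS, an immediate early gene like egr1, stood at 69.5, 65.5 and 31.9 in the RO libraries, against 119, 112 and 82.5 in the DMSO libraries, without overlap (log2 fold change -0.97, limma, adjusted p = 0.120). DESeq2 called FOS, at a log2 fold change of -0.91 (adjusted p = 0.00914). Of the 34 IDs of the list that holds FOS and the etv genes, 3 lay lower and 10 higher in RO without overlap. Over all genes the shares were 9.35% lower and 9.32% higher. The list was chosen with earlier results known.

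**Figure D4:**
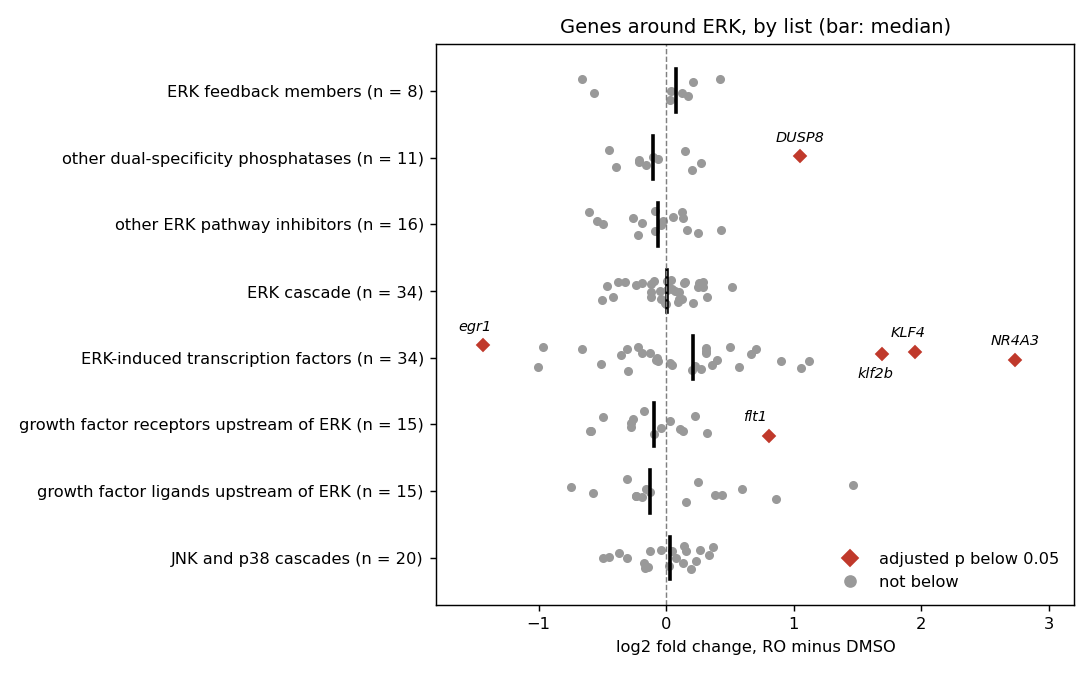
Log2 fold change of RO minus DMSO (horizontal axis) for each measured gene ID of 8 lists around ERK (vertical axis, n in brackets), with red diamonds for an adjusted p below 0.05, grey circles otherwise and a black bar at the median of each list. The medians lie between -0.13 and 0.21, and the genes that pass are DUSP8, egr1, klf2b, KLF4, NR4A3 and flt1.

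Upstream of ERK, 1 of 15 receptor IDs and none of 15 ligand IDs passed in limma, and edgeR and DESeq2 gave the same counts. Without RO replicate 4, 1 ligand ID passed, HBEGF (adjusted p = 0.00941). The receptor was flt1, which binds vascular endothelial growth factors and rose 1.75-fold, to 119 ± 21.0 in RO against 67.4 ± 9.80 in DMSO (SD, n = 3 each; limma, adjusted p = 0.0356). Its call ended with quantile normalization, in limma without the trend, and without any library but DMSO replicate 1 (adjusted p up to 0.120). The ligand genes with the highest level were VEGFA, at a log2 fold change of 0.15 (adjusted p = 0.626), and igf2b, at -0.19 (adjusted p = 0.668). In the JNK and p38 chains, whose kinases DUSP8 acts on, none of 20 IDs passed with limma, edgeR or DESeq2 and the median log2 fold change was 0.031. MAPKAPK2, a kinase activated by p38, stood at 0.24 (adjusted p = 0.376) and MAP3K7, a kinase upstream of both chains, at 0.043 (adjusted p = 0.920).

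Markers of the cell types in the apex were compared between the groups by counts and summed levels. Only the thrombocyte sums did not overlap between the groups. Over all 14211 genes, 6879 lay above 0 and 7332 below 0. Of 16 fibroblast and epicardium marker IDs, 13 lay below 0 with a median log2 fold change of -0.46, none passed in limma or edgeR and 4 in DESeq2, and their summed level ran from 7193 to 9192 in RO and from 9109 to 11155 in DMSO, with a slight overlap. Without RO replicate 2 or RO replicate 4, 1 of them passed in limma. Of 10 thrombocyte markers 9 lay above 0, with sums of 249 to 394 in RO and 188 to 233 in DMSO, and 1 passed in limma, upward, with 3 called by DESeq2. Without 1 library, 2 thrombocyte markers passed without RO replicate 4 and none without any other. Of 16 endothelium and endocardium markers 11 lay above 0, with sums of 1166 to 1437 in RO and 1101 to 1257 in DMSO. In limma 2 of them passed, both upward (0 or 1 without 1 library). Among these 2 was flt1, the same ID as the receptor given above, so it is not a separate call. Of 17 macrophage markers 14 lay above 0, with sums of 1145 to 1393 in RO and 811 to 1164 in DMSO, and none passed with limma, edgeR or DESeq2. Heart muscle markers summed to 47502 to 54734 in RO and 50256 to 60542 in DMSO, with 13 of 19 below 0 and 2 passing upward in limma (0 without DMSO replicate 1 or 2). Neutrophil markers summed to 125 to 145 in RO and 102 to 174 in DMSO, and erythrocyte markers to 699 to 1673 in RO and 768 to 1601 in DMSO, with no call by limma, edgeR or DESeq2 in either. The part of these cell types in the values of the members was not tested.

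The genes whose pattern over the 6 libraries was most like that of DUSP6 were DCAF7, TMEM182, WDR41, HMGB3 and mpped2a. Likeness was the root mean square difference between standardised log2 levels, 0.151 to 0.237 for these 5 among 9578 candidate IDs with a symbol and a mean value of at least 5. For the mean standardised profile of the 8 members the nearest were NDFIP1, UBE2D3, zgc:86609, SEC63 and si:dkeyp-8h9.1, at 0.145 to 0.269. That mean profile was standardised again over the 6 libraries, so its unit is its own SD and not the spread of the members. On that scale it was lowest in DMSO replicate 1, at -1.96, and highest in DMSO replicate 3, at 1.02. The RO libraries lay between them, at -0.56, 0.43 and 0.41. DMSO replicate 1 was the lowest DMSO library for 4 of the 8 members, and not for SPRY2, spred2a, SPRED1 or SPRED2. None of these 10 genes passed the threshold. They were chosen for likeness to profiles whose groups overlap, so this outcome was largely fixed beforehand. How near the best 5 of 9578 candidates would lie by chance was not computed.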

How the data were processed

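The authors deposited 1 table of a scaled signal per gene and library for 3 RO and 3 DMSO libraries, per the file headers. Its values are whole reads divided by 1 factor per library, on the scale of CPM: 100% came out whole within 0.01 read. Per the submitters' processing notes, which assign no roles, the tools were RSEM 1.2.3, Bowtie2 2.0.6, edgeR, cutadapt 1.6.1 and CASAVA 1.8, and the build was Zv9. Neither annotation release nor strand use is given in the sources used here; paralogs or overlapping genes may share reads. Every gene lay above 1 in at least 3 libraries.

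Symbols came from a table pairing IDs with names (11589 of 14211 IDs). Values were tested as log2(value + 0.5) with limma 3.58.1 (trend, R 4.3.3), all 6 libraries, no covariate, Benjamini-Hochberg over all genes. Folds are on that scale and understate changes of low genes. The script was tested on simulated reads. Alternatives were other pseudocounts, a minimum mean of 5, other scalings and limma settings, a replicate block, each library left out, and edgeR 4.0.16 and DESeq2 1.42.0 on recovered reads. Ratios used exact permutation tests (scipy 1.17.1).

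Members, gene lists and markers were chosen with earlier results of these data known. All members were reported. For other lists the rule names up to 4 passing genes by p or, with none, the 2 of highest level; cell type markers are given as counts and sums. Libraries of a group differed beyond sampling noise (chi-square per degree of freedom 5.16 to 12.3). The labels do not say whether pools were separate experiments, so p-values measure the spread between these pools. One gene of the ERK chain is not reported here.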

Additional observations from a re-analysis of the deposited data

How the results depend on the processing

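None of the 8 members was called under any setting but robust empirical Bayes, where 1, SPRY2, passed; with a minimum mean of 5 its adjusted p was 0.0501. SPRY2, spred2a, DUSP5, SPRY4 and SPRED1 kept their direction in every setting tried. The members' median was -0.037 with the replicate block and -0.0031 to 0.15 with 1 library left out. Number 1 occurs only in DMSO and number 4 only in RO, so the block compares only replicates 2 and 3 of each group. DUSP4 turned with the block (-0.27), edgeR (-0.0072), DESeq2 (-0.0034) and without RO replicate 2 or DMSO replicate 1 (-0.27 to 0.19 over the 6 omissions). DUSP6 turned with quantile normalization (-0.032), the block (-0.15) and 3 omissions (-0.075 to 0.18). SPRED2 lay between -0.016 and 0.33 over the omissions, MAP3K7 between -0.023 and 0.13, and igf2b turned with the block (0.081). DESeq2 gave no adjusted p for SPRED2 or KLF4. Genes called, 147 in all, numbered 1 without the mean-variance trend, 405 with the block, 240 with DESeq2 and 22 to 105 with 1 library left out; the cause was not tested. The replicate numbers 2 and 3 occur in both groups, and no label says that they pair libraries. Deviations from the group mean correlated by 0.116 for number 2 and 0.0913 for number 3. For the other pairs of an RO and a DMSO library the correlations ran from -0.116 to 0.0433. The block called none of the members (SPRY2, limma, adjusted p = 0.0762). It called 2 ligand IDs, 3 macrophage, 3 thrombocyte and 1 fibroblast markers, against 0, 0, 1 and 0 without it. Members with fewer than 150 reads per library, DUSP4, SPRY2, SPRED2 and spred2a, carry counting errors of 8.42% to 17.7%, which limits small differences.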

Other observations

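Genes at other points of the ERK chain, named after their values were seen, lay apart between the groups without passing the threshold in limma over all 6 libraries. The HBEGF genes encode a ligand of the EGF receptor family. HBEGF (ENSDARG00000031246) stood at 109, 63.7 and 27.0 in RO replicates 2, 3 and 4, against 16.3, 26.6 and 19.9 in DMSO replicates 1, 2 and 3, a log2 fold change of 1.46 (limma, adjusted p = 0.118). The lowest RO library lay just above the highest DMSO library, and the RO libraries were far apart. HBEGF passed without RO replicate 4 (adjusted p = 0.00941) and with the replicate number as a block (adjusted p = 0.00121). The block compares only replicates 2 and 3 of each group, so it too sets aside RO replicate 4, the RO library nearest to DMSO. Its paralog hbegfa stood at 74.6, 72.7 and 71.3 in the RO libraries, against 50.6, 57.3 and 59.8 in the DMSO libraries, a log2 fold change of 0.38 (adjusted p = 0.172). MAP2K1, the gene of the kinase MEK1 that phosphorylates ERK, stood at 53.6, 59.6 and 51.1 in the RO libraries, against 87.5, 69.7 and 70.9 in the DMSO libraries, a log2 fold change of -0.46 (adjusted p = 0.137). None of the 3 genes overlapped between the groups, and 18.7% of the whole table likewise had groups that did not overlap. They were named after their values were seen, so their count cannot be compared with that share. Of the 34 IDs of the ERK chain, 2 lay lower and 5 higher in RO without overlap. Of the 15 ligand IDs, 1 lay lower and 3 higher.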
